A study of Mus musculus with 6 samples.

Results

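Transferrin receptor and other genes of iron handling were examined in mouse testis on postnatal day 21, with 3 Nxf2 KO testis samples set against 3 WT samples, 1 array each. The labels give Nxf2 KO as a knockout of Nxf2, an X-linked germ cell relative of the mRNA export receptor gene Nxf1, and give no strain, allele design, promoter or number of animals per sample. The p-values therefore measure only the spread between these samples, which may be technical. The members are the 10 genes Tfrc, Trf, Fth1, Ftl1, Fthl17a, Slc40a1, Slc11a2, Ireb2, Aco1 and Cp, read by every probe set whose platform annotation names 1 of them alone, plus the control probe sets for the mouse transferrin receptor. They came to 27 of the 45101 probe sets on the array: 24 ordinary ones for 8 genes, of 18162 genes that some probe set names alone, and 3 Tfrc control probe sets. Trf, which encodes serum transferrin, and Ftl1, the ferritin light chain gene, had 1 and 3 probe sets, all of which the annotation gives to several genes at once, so no value is given for either. The genes were chosen by name with the KO against WT signals of these arrays known, so their values, folds and calls are a description and support nothing further.

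Most cells take up iron as transferrin-bound iron through the transferrin receptor, move it out of the endosome through the transporter encoded by Slc11a2, store it in ferritin shells of heavy and light chains, and release it through ferroportin, encoded by Slc40a1. The iron regulatory proteins encoded by Aco1 and Ireb2 bind hairpins in mRNA when iron is scarce, which stabilises the transferrin receptor mRNA and blocks translation of ferritin and ferroportin mRNAs. In the testis, Sertoli cells secrete transferrin and supply iron to germ cells behind the blood-testis barrier, and developing sperm pass iron into mitochondria and haem proteins.

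The start regions of 3 members are shown because they belong to the transferrin receptor, to the general ferritin heavy chain gene and to its testis relative, which had the lowest fold of the members. Each is the 250 bases before an annotated start on the plus strand of GRCm38.p6, from RefSeq, written 5′ to 3′. For Tfrc the first of its annotated starts was taken, and for Fth1 the second. Capitals mark the motifs searched on both strands, namely the GC box GGGCGG, the CCAAT box CCAAT, the TATA box TATAAA and the hypoxia response core ACGTG, and no 2 matches overlapped in these windows.
Tfrc, chr16:32608646-32608895: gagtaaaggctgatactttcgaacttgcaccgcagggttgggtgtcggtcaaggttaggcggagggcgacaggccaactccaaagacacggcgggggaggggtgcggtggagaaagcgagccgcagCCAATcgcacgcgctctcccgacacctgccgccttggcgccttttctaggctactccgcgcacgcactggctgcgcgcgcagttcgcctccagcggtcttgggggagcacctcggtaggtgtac
Fth1, chr19:9982396-9982645: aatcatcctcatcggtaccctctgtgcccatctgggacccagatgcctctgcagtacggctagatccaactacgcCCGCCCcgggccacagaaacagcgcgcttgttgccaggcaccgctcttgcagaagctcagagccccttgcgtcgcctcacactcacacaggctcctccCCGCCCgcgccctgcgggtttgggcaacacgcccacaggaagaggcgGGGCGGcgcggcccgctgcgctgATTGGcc
Fthl17a, chrX:85249427-85249676: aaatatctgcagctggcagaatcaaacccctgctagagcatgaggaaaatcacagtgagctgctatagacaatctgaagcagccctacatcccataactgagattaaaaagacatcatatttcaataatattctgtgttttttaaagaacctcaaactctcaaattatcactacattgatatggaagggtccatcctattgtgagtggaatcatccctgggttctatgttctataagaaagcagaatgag
The Tfrc window was 64.8% G and C with 1 CCAAT box, and the Fth1 window was 66.8% G and C with 3 GC boxes and 1 CCAAT box. These values depend on the start taken. The window of the first Fth1 start was 34.8% G and C with 1 TATA box and no GC or CCAAT box. That of the second Tfrc start was 68.0% G and C with 1 GC box and no CCAAT box. The Fthl17a window was 38.0% G and C and held none of the 4 motifs, against a median of 52.4% G and C over 32851 mouse promoter windows. Among all those windows 32.7% held a GC box, 33.8% a CCAAT box, 12.4% a TATA box and 16.6% the hypoxia response core. The core was in 1 of the 10 member windows, that of the second annotated Tfrc start. A match is given as a description of the letters only, and the genotypes were not compared on it.

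Before the members, the arrays were checked on Nxf2 itself. Each value below is a MAS5 signal on a linear scale, comparable between arrays for 1 probe set but not between probe sets. The Nxf2 probe set had signals of 116, 106 and 131 in KO testes, against 374, 340.4 and 386 in WT testes, so the KO arrays were all lower. The residual KO signal is reported as measured, since the sources used here do not say whether these probes lie in the deleted part. Median signals of the 6 arrays lay between 37.1 and 40.9. Of markers of the labelled tissue, all 12 for Sertoli cells, 12 for round spermatids and 10 for pachytene spermatocytes reached the dim limit, a mean signal of 20.5 over the 6 arrays that a probe set needed to be tested. The round spermatid markers Actl7a and Tssk2 reached it only through WT, with means of 12.8 ± 3.06 and 15.1 ± 5.66 in KO, against 62.3 ± 27.1 and 43.7 ± 19.0 in WT (SD, n = 3 each). Of those markers, 3 Sertoli cell markers were called higher and none lower in KO, while 11 round spermatid and 4 pachytene markers were called lower and none higher. Over all tested genes 2.98% were called higher and 7.37% lower. Means were higher in KO for all 12 Sertoli cell markers and for none of the round spermatid and pachytene markers. KO replicate 3 stood apart in the macrophage and Leydig cell lists, whose values are given beside Cp with those of other lists.

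Of the 24 ordinary member probe sets, 21 passed the dim limit and 3 did not. In a limma fit of log2(signal + 7) across all 27022 tested probe sets, with a Benjamini-Hochberg adjusted p under 0.05 as the call, 5 of the 21 were called, where 7.49% of all tested probe sets were. By direction, 4 were called higher in KO, against 2.26% of all probe sets, and 1 was called lower, against 5.23%. These 5 belong to Tfrc, Slc11a2 (2 probe sets), Cp and Fthl17a. In 9 of the 21 every KO value lay above every WT value, an arrangement found in 19.1% of all tested probe sets, and in 1 every KO value lay below, found in 14.8% (33.9% for both together). The median log2 fold change was 0.40 over the 21 member probe sets and 0.037 over all tested ones. Several member probe sets read the same gene, 7 of them Cp, so these counts are not of independent genes, and since the choice of members used this contrast nothing is read from them. In whole tissue, fewer cells of a type and less RNA per cell cannot be told apart.

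**Figure D1:**
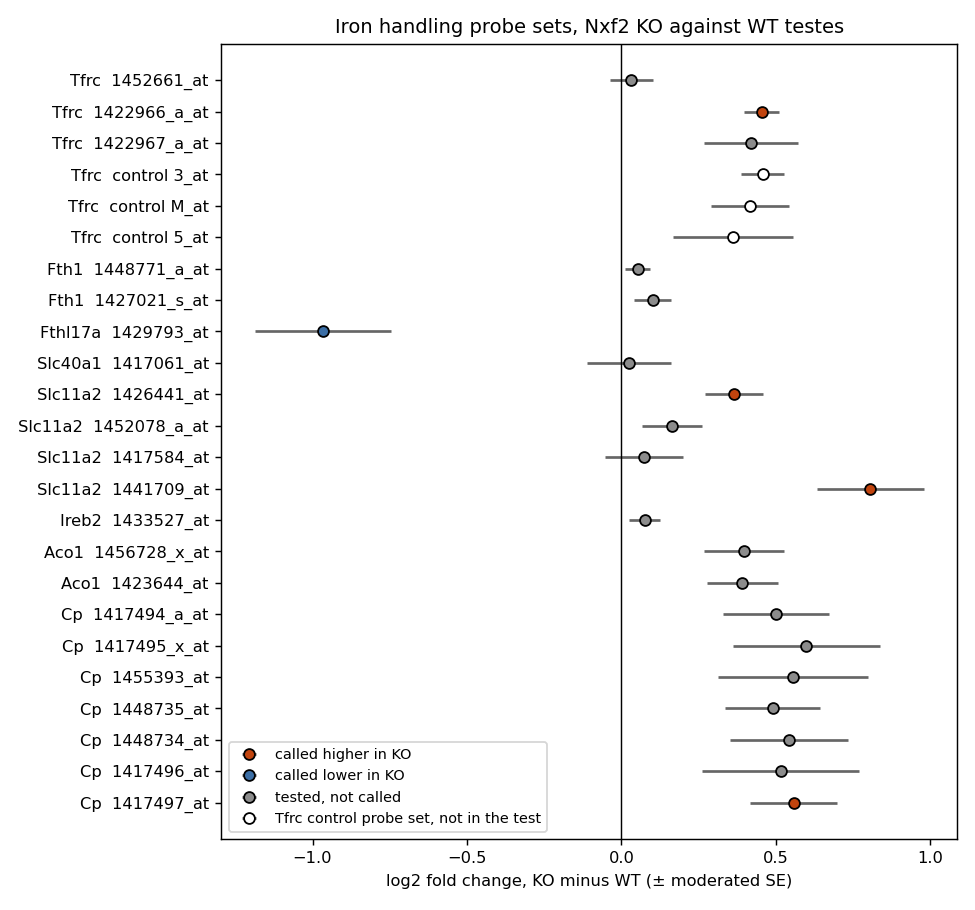
Log2 fold change (KO minus WT, x axis, on the log2(signal + 7) scale) with its moderated standard error for the 21 tested member probe sets and the 3 Tfrc control probe sets, each on its own line. All but the Fthl17a probe set lie above 0, and the Cp and Aco1 probe sets cluster at 0.39 to 0.60.

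Tfrc encodes transferrin receptor 1, the entry point for transferrin-bound iron. Its probe set 1422966_a_at had signals of 637, 637 and 640.2 in KO testes, against 456, 450.45 and 485 in WT testes. The KO values lay close together and all above the WT values. The log2 fold change was 0.45 ± 0.058 (SE), a fold of 1.37, and the probe set was called higher in KO with all arrays and with each single array left out in turn.

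The brightest Tfrc probe set, 1452661_at, did not show this. Its signals were 866, 798 and 740.4 in KO testes, against 737, 836 and 777 in WT testes. The groups overlapped, with the highest and the second lowest values both from KO, and the log2 fold change was 0.032 ± 0.070 (SE). Its sign turned without KO replicate 1, without WT replicate 1 and after median centring. A much dimmer probe set, 1422967_a_at, had signals of 54.6, 67.1 and 73.5 in KO testes, against 43.8, 55.1 and 41.6 in WT testes. One WT value lay just above the lowest KO value, and this probe set was not called.

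The control probe sets read the 3′ part, the middle and the 5′ part of the Tfrc transcript. The 3′ one had signals of 474, 442 and 475 in KO testes, against 347, 317 and 343 in WT testes, and the middle one had 57.7, 61.8 and 69.1 in KO, against 42.6, 47.7 and 45.6 in WT. Both groups were fully separated in both. The 5′ one, near the dim limit, had 19.3, 22.3 and 30.5 in KO testes, against 19.0, 20.6 and 12.02 in WT testes, and its groups overlapped. The log2 fold changes were 0.46 ± 0.070 for the 3′ part, 0.42 ± 0.13 for the middle and 0.36 ± 0.20 for the 5′ part (SE), so these 3 and the 2 dimmer gene probe sets had folds of 1.29 to 1.37 in KO and only the brightest lay near 1.

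**Figure D2:**
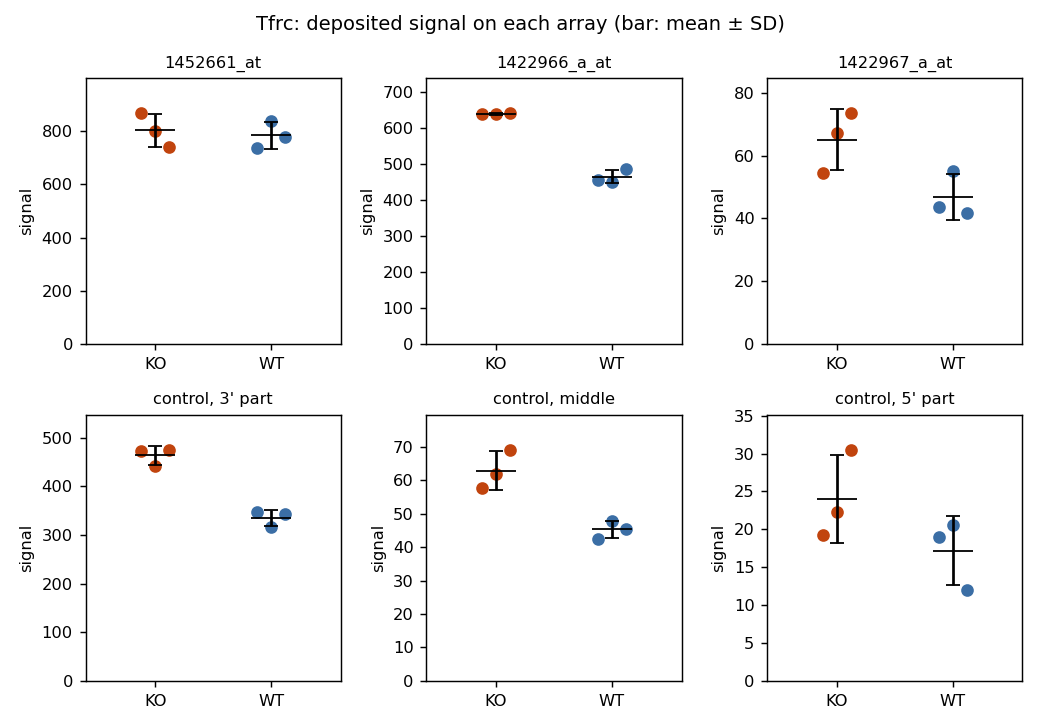
Deposited signal (y axis, linear, from 0) of the 6 Tfrc probe sets on each KO array (left) and WT array (right), with the group mean and SD as bars. KO and WT points separate completely for 1422966_a_at and for the 3′ and middle control probe sets, and mix for 1452661_at.

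The disagreement between the Tfrc probe sets also showed when their ratio was compared between the genotypes. The ratio of 1422966_a_at to 1452661_at was 0.735, 0.798 and 0.865 in KO testes, against 0.619, 0.539 and 0.625 in WT testes, without overlap. This pair was picked after its values were seen, so the ratio is not tested. Across the 6 arrays, which differ in genotype, 1422966_a_at followed the 3′ control probe set (r = 0.98) and the middle one (r = 0.93) but not 1452661_at (r = 0.16), all on the log2 scale and as a description. The sources used here do not say which part of the transcript 1422966_a_at and 1452661_at read.

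The 3′ over 5′ ratio of the Tfrc control signals rises as transcripts lose their 5′ part. The choice of members covered these control probe sets, so the ratio is given as a description with no test. It was 24.5, 19.8 and 15.6 in KO testes, against 18.2, 15.4 and 28.6 in WT testes, with the widest spread among WT. The means were 20.0 ± 4.48 in KO and 20.7 ± 6.94 in WT (SD, n = 3 each). The log2 difference was -0.029, and its sign turned without KO replicate 3 or WT replicate 3. The ratio of the 3′ to the middle signal was 7.41 ± 0.702 in KO and 7.44 ± 0.755 in WT (SD, n = 3 each).

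Markers of red blood cells and of undifferentiated spermatogonia were set beside these values. Of 7 red blood cell markers on the array 3 were tested and none was called, their summed signal was 1355 to 1842 in KO and 1304 to 1754 in WT, and Hba-a1, Slc4a1, Rhag and Epb42 were below the dim limit. Of 8 markers of undifferentiated spermatogonia, 5 were called higher in KO, against 2.98% of all tested genes, and none was called lower. Their sums were 3298 to 3344 in KO and 2726 to 2762 in WT. The mean was higher in KO for 6 of the 8 and lower for Gfra1 and Id4. Gfra1 had means of 30.85 ± 5.67 in KO and 34.99 ± 6.31 in WT. Id4 had 651.9 ± 92.3 in KO and 720.9 ± 27.7 in WT (SD, n = 3 each). Sums were also higher on every KO array than on any WT array for Sertoli cells (9384 to 9890, against 8512 to 8911) and endothelium (290 to 406, against 261 to 277). The same held for the Leydig cell and macrophage lists, whose sums are given beside Cp. Round spermatid, pachytene and epididymis sums were lower on every KO array. The part of any of these cell types in the Tfrc values was not tested. The 5 genes whose values most resembled the brightest Tfrc probe set over the 6 arrays were Hnrnpk, an RNA-binding protein gene (r = 0.999), Atp5o, an ATP synthase subunit gene (r = 0.98), Prkrip1 (r = 0.98), Stmn1, which encodes the tubulin-binding protein stathmin (r = 0.97), and Fhod3, a formin gene (r = 0.97). Their log2 fold changes ran from 0.014 for Atp5o to 0.091 for Prkrip1. These genes were picked for the highest r with that probe set, so values near 0 are owed largely to the choice. The sign turned after median centring for Hnrnpk, Atp5o and Stmn1, and without KO replicate 1 for all but Stmn1.

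Slc11a2 encodes the divalent metal transporter that carries iron out of the endosome. Its brightest probe set, 1426441_at, had signals of 256, 231 and 259 in KO testes, against 202, 199 and 174 in WT testes. All KO values were higher, with a log2 fold change of 0.36 ± 0.094 (SE), and the probe set was called. The call was lost when any 1 array was left out. It was also lost after quantile normalization (limma adjusted p = 0.0542) and after median centring (limma adjusted p = 0.0805). The dim probe set 1441709_at had 49.97, 47.2 and 47.8 in KO, against 18.0, 32.3 and 25.3 in WT, again without overlap. Its log2 fold change was 0.81 ± 0.17 (SE), and the call was lost when any single array other than WT replicate 2 was left out.

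The other 2 Slc11a2 probe sets differed less and were not called. Probe set 1452078_a_at had signals of 189, 189 and 178 in KO testes, against 169, 177 and 149 in WT testes, where the lowest KO value only just exceeded the highest WT value. Probe set 1417584_at had means of 49.6 ± 2.91 in KO and 46.8 ± 3.38 in WT (SD, n = 3 each), with overlapping groups. All 4 thus had a higher mean in KO, at log2 fold changes of 0.073 to 0.81.

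Ferritin heavy chain, encoded by Fth1, has the ferroxidase site that loads iron into the shell. Its brightest probe set, 1448771_a_at, had signals of 1964, 1921 and 1956 in KO testes, against 1804, 1974 and 1855 in WT testes. The highest value of all came from WT, and the log2 fold change was 0.053 ± 0.040 (SE). The second probe set, 1427021_s_at, had means of 1004 ± 77.9 in KO and 934 ± 13.5 in WT (SD, n = 3 each), with KO replicate 2 inside the WT range. Neither was called. A name ending in _s_at or _x_at marks a probe set whose probes may also match other transcripts.

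Fthl17a is an X-linked ferritin heavy chain-like gene of germ cells. Its only probe set had signals of 8.42, 9.38 and 18.0 in KO testes, against 34.4, 21.5 and 32.8 in WT testes. All KO values were lower, and all 3 were below the dim limit, which the mean of 20.7 over all 6 arrays only just passed. The log2 fold change was -0.97 ± 0.22 (SE), a fold of 0.512 on the log2(signal + 7) scale and 0.403 between the mean signals. The call for lower in KO was lost without KO replicate 1, KO replicate 2, WT replicate 1 or WT replicate 3, with log2 fold changes of -1.18 to -0.84 when 1 array was left out. The related genes Fthl17b to Fthl17f had no probe set naming 1 of them alone, and whether the Fthl17a probes also read them was not tested. Beside this, the summed signal of the 12 round spermatid markers was 2787 to 2967 in KO and 3931 to 4479 in WT, with all 12 lower on average in KO. The 10 pachytene markers summed to 8529 to 9936 in KO and 10398 to 10845 in WT, and the epididymis sums were also lower in KO. The sums of undifferentiated spermatogonium, Sertoli cell, Leydig cell, macrophage and endothelium markers were higher in KO. The part of any of these cell types in the Fthl17a values was not tested.

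**Figure D3:**
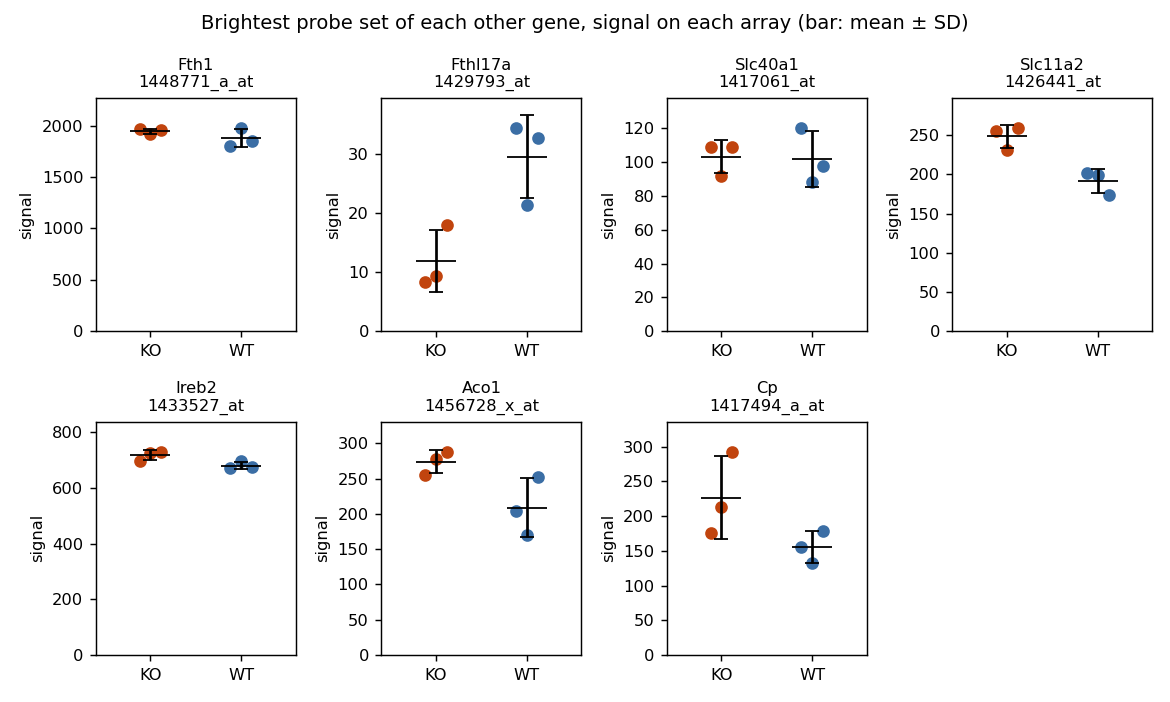
Deposited signal (y axis, linear, from 0) on each KO array (left) and WT array (right) for the brightest probe set of the 7 measured members other than Tfrc, with the group mean and SD as bars. KO points lie above WT for Slc11a2, Ireb2 and Aco1, below for Fthl17a, and overlap with WT for Fth1, Slc40a1 and Cp.

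Slc40a1 encodes ferroportin, the known cellular iron exporter. Its tested probe set, 1417061_at, had signals of 109, 92.0 and 109 in KO testes, against 120, 88.0 and 97.5 in WT testes. The KO values lay inside the WT range, with a log2 fold change of 0.025 ± 0.13 (SE) whose sign turned under 6 of the 15 alternatives, among them quantile normalization and median centring. The other probe set, 1448566_at, stayed below the dim limit, with means of 15.3 ± 1.85 in KO and 14.3 ± 3.26 in WT (SD, n = 3 each).

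The tested probe sets of both iron regulatory protein genes had every KO value above every WT value, and none was called. That arrangement was found in 19.1% of all tested probe sets. Aco1 encodes iron regulatory protein 1, which doubles as cytosolic aconitase. Its brightest probe set, 1456728_x_at, had signals of 256, 278 and 288 in KO testes, against 204, 170.1 and 253 in WT testes, where WT replicate 3 lay just below the lowest KO value. Probe set 1423644_at had 221, 220.1 and 245 in KO, against 168, 151 and 202 in WT. The log2 fold changes were 0.40 ± 0.13 and 0.39 ± 0.11 (SE), and both probe sets were called without WT replicate 3. Without WT replicate 2 the first had 0.26. Its remaining one, 1447080_at, stayed below the dim limit with signals of at most 8.18.

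Ireb2 encodes iron regulatory protein 2, which is degraded when iron is plentiful. Its probe set had signals of 698, 726 and 729 in KO testes, against 670.2, 696 and 675 in WT testes. All KO values were higher, but KO replicate 1 lay only just above WT replicate 2, and the log2 fold change was 0.076 ± 0.051 (SE).

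Cp encodes ceruloplasmin, a copper-containing ferroxidase that helps ferroportin to pass iron to transferrin. Its 7 tested probe sets had log2 fold changes of 0.49 to 0.60, and 1 was called. The brightest, 1417494_a_at, had signals of 175, 213 and 292 in KO testes, against 155, 133 and 179 in WT testes. KO replicate 1 lay inside the WT range there. The called one, 1417497_at, had 96.7, 104 and 104 in KO, against 81.4, 65.7 and 55.6 in WT, without overlap, and it lost its call when any single array was left out. An eighth probe set, 1441326_at, was near 0 on every array, with a highest signal of 4.35.

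The Cp signal was uneven among the KO testes. KO replicate 3 was the highest and KO replicate 1 the lowest KO array in all 7 tested probe sets. KO replicates 2 and 3 exceeded every WT value in all 7, KO replicate 1 in 2. Set against the WT average, the median over the 7 probe sets was 0.13, 0.51 and 0.97 on the log2 scale in KO replicates 1 to 3, against 0.10, -0.11 and -0.0029 in WT replicates 1 to 3. Without KO replicate 3 the median log2 fold change was 0.31, against 0.54 with all arrays, and none of the 7 was called. Without KO replicate 1 it was 0.75, and 3 were called.

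Macrophage and Leydig cell markers were also highest in KO replicate 3. The macrophage list was lowest in KO replicate 1, as Cp was, but the Leydig cell list in KO replicate 2. The median of 10 macrophage markers relative to the WT mean was 0.11, 0.34 and 0.93 in KO replicates 1 to 3, against 0.024, -0.15 and 0.15 in WT replicates 1 to 3, and none of the 10 was called. Their summed signal was 2211 to 3371 in KO and 1519 to 2079 in WT. The 6 Leydig cell markers on the array gave 0.45, 0.28 and 0.81 in KO, against -0.11, 0.079 and 0.061 in WT. Of these 6, 2 were called higher, against 2.98% of all tested genes, and their sums were 2648 to 3869 in KO and 2196 to 2463 in WT. All of these markers were above the dim limit. Among the other lists, KO replicate 3 had the highest KO median for 4. In KO replicates 1 to 3 these were -0.067, 0.28 and 0.42 for endothelium and 0.19, 0.15 and 0.31 for Sertoli cells. They were 0.29, 0.36 and 0.47 for undifferentiated spermatogonia and -0.96, -0.81 and -0.69 for round spermatids. In the pachytene, red blood cell and epididymis lists KO replicate 3 was not the highest. The part of any of these cell types in the Cp values was not tested.

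**Figure D4:**
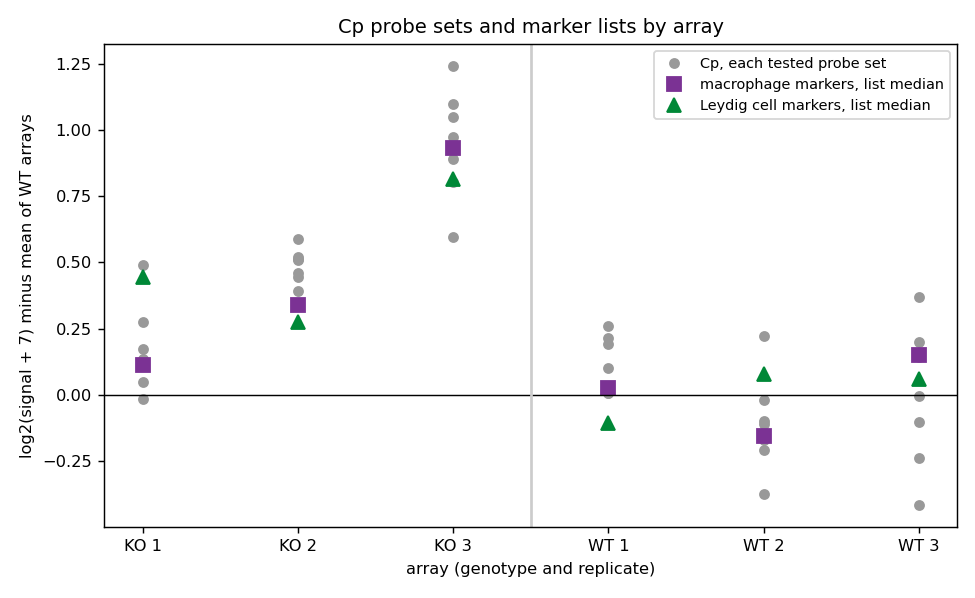
Log2(signal + 7) minus the mean of the WT arrays (y axis) on each array (x axis) for the 7 tested Cp probe sets (grey circles) and for the median of the macrophage (squares) and Leydig cell (triangles) marker lists. KO replicate 3 has the highest list medians, 0.93 and 0.81, and the highest Cp values in all 7 probe sets among the KO arrays.

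To set the members beside the rest of the pathway, 99 other genes of iron handling were taken from textbook knowledge in 7 groups. Of these, 77 were tested by their brightest probe set, 8 were below the dim limit and 14 had no probe set naming them alone. In the limma fit, 2 of the 77 rose and 4 fell in KO, against 2.98% and 7.37% of all 12958 tested genes (10.3% either way). The list's share of 7.79% called lay close to that background. The list's median log2 fold change was 0.059, beside 0.037 over all tested genes.

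The deepest fall was in storage. Ftmt encodes mitochondrial ferritin, which is abundant in testis. Its signals were 39.4, 34.2 and 53.7 in KO testes, against 162, 97.0 and 186 in WT testes. The KO values were all lower by a wide margin, and the log2 fold change was -1.63 ± 0.23 (SE, limma adjusted p = 0.00606), a fold of 0.324. It stayed called under all 15 alternatives (adjusted p 2.29e-05 to 0.0457). Among the marker lists, the round spermatid, pachytene and epididymis sums were also lower in KO, and those of most other lists were higher. The part of these cell types in the Ftmt values was not tested. Of the other 4 tested storage and chaperone genes none was called, with Pcbp3, an RNA-binding relative of the iron chaperones, at -0.19 (adjusted p = 0.148; -0.10 without KO replicate 3) and Ncoa4, the ferritin receptor of autophagy, at -0.10 on the log2 scale (adjusted p = 0.257). Ncoa4 was named after its value was seen. A dimmer probe set of each was called lower, at -0.25 for Pcbp3 (adjusted p = 0.0354) and -0.29 for Ncoa4 (adjusted p = 0.0374).

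In haem synthesis and breakdown 2 of 14 tested genes rose and none fell, against 2.98% and 7.37% of all tested genes. The median log2 fold change was 0.26, beside 0.037 over all tested genes. Of the 14, 12 were above 0, as were 45 of the 77 in the whole list. Cd163 and Alas2 of this group are also in the macrophage and red blood cell marker lists. Hmox1, the haem oxygenase that frees iron from haem, had signals of 163, 192 and 268 in KO testes, against 137, 132 and 129 in WT testes. All KO values were higher, with KO replicate 3 highest as for Cp, and the log2 fold change was 0.59 ± 0.15 (SE, limma adjusted p = 0.0467). Without KO replicate 3 it was 0.40 (adjusted p = 0.0808). Tmem14c, which serves the import of haem precursors into mitochondria, had 441, 421 and 499 in KO, against 378, 366 and 362 in WT, a log2 fold change of 0.29 (adjusted p = 0.0481). Leaving out 1 array kept the call of Hmox1 only without KO replicate 1 and that of Tmem14c in no case (adjusted p up to 0.134 and 0.137). Macrophage markers, whose values are given above, had the same order as Hmox1 over the KO arrays but not over the WT arrays. Their part in the Hmox1 values was not tested.

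Among genes of uptake and reduction 1 of 14 fell and none rose, against 7.37% and 2.98% of all tested genes. Slc39a8, a metal transporter of the ZIP family, had signals of 374, 384 and 313 in KO testes, against 454, 466 and 437 in WT testes. The groups did not overlap, and the log2 fold change was -0.34 ± 0.085 (SE, limma adjusted p = 0.0398), a call that held without KO replicate 2 but was lost without any other single array. Hfe, the haemochromatosis gene, whose product binds transferrin receptor 1, had 179, 157 and 193 in KO, against 128, 109 and 145 in WT, a log2 fold change of 0.45 that did not pass (adjusted p = 0.0557). Its dimmer probe set was called higher, at 0.72 (adjusted p = 0.0467), and that of Slc39a8 was not called (-0.36, adjusted p = 0.182).

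Iron-sulfur cluster genes showed small differences. For the counts below, the shares over all tested genes were 7.37% called lower and 2.98% called higher. Of 18 tested mitochondrial genes 1 fell and none rose: Bola3, a late-acting assembly factor, had means of 412 ± 16.9 in KO and 489 ± 19.7 in WT (SD, n = 3 each). Its log2 fold change was -0.25 (limma adjusted p = 0.0496), and the call was lost when any 1 array was left out. It was also lost after quantile normalization (adjusted p = 0.0535), after median centring (0.0643) and with a pseudocount of 1 (0.0504). Isca1 had a log2 fold change of -0.20 and did not pass (adjusted p = 0.0600), while its dimmer probe set was called lower at -0.44 (adjusted p = 0.0288). Of 9 cytosolic assembly genes 1 fell and none rose: Nubp2, a scaffold protein gene, had means of 561 ± 32.6 in KO and 666 ± 25.6 in WT (SD, n = 3 each). Its log2 fold change was -0.24 (adjusted p = 0.0435). The call was lost without any single array other than KO replicate 1, and after median centring (adjusted p = 0.0678). Ciapin1, an electron carrier gene of the same machinery, had -0.16 (adjusted p = 0.191), and -0.099 without KO replicate 3. The second probe sets of Bola3 and Nubp2 were not called (-0.21, adjusted p = 0.359, and -0.12, adjusted p = 0.542), and that of Nubp2 turned to 0.016 without KO replicate 3.

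None of 5 tested export and haem transport genes and none of 12 regulators was called, where 10.3% of all tested genes were. Among the exporters, Slc48a1, a haem transporter gene, had a log2 fold change of 0.47 (limma adjusted p = 0.115) and Flvcr1, a haem exporter gene, one of -0.27 (adjusted p = 0.157). The value of Slc48a1 was 0.26 without WT replicate 2, whose signal of 67.2 lay below the 111 and 106 of the other WT arrays. Among the regulators, Acvr1, a BMP receptor gene, had 0.62 (adjusted p = 0.0778) and Hjv, the hemojuvelin gene, -0.45 (adjusted p = 0.0749). Acvr1 had signals of 94.0, 94.5 and 154 in KO testes, against 81.6, 57.4 and 72.9 in WT testes, and its log2 fold change was 0.40 without KO replicate 3, the highest array. The other tested probe sets of Slc48a1, Acvr1 and Hjv had the same signs and were not called. Hamp, which encodes the iron hormone hepcidin, was below the dim limit, as were Bmp6 and Tmprss6. These 3 and Fbxl5, which marks iron regulatory protein 2 for degradation, were named after their values were seen. Fbxl5 had signals of 800.2 ± 47.7 in KO and 839.6 ± 35.3 in WT (SD, n = 3 each).

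**Figure D5:**
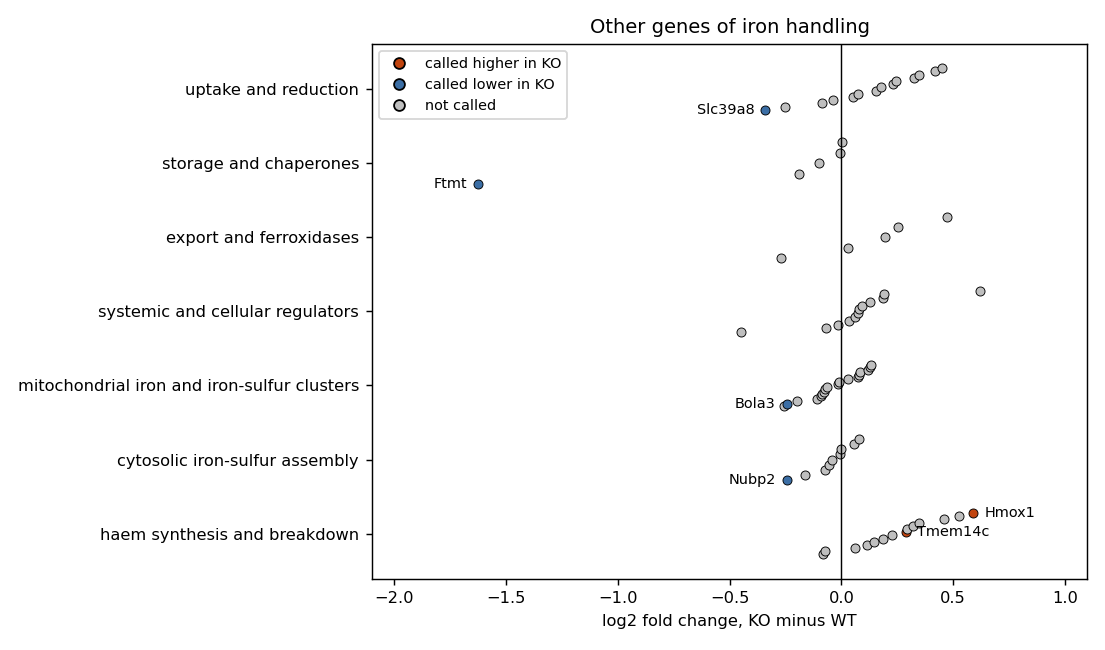
Log2 fold change (KO minus WT, x axis) of the 77 other tested iron genes in 7 groups (y axis), 1 point per gene, with called genes coloured and named. Ftmt lies farthest from 0 at -1.63, and the 2 genes called higher are both in the haem group.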

How the data were processed

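The deposited values are linear signal intensities, 1 for each probe set on each array, made by the authors with MAS5, per the submitters' processing notes, which give no version. The mean without the lowest and highest 2% of the intensities was 150.0 on every array. Neither scanner files nor detection calls were read, which leaves probe sets without a background limit of their own, and the number of arrays limits the precision. Samples were grouped by their titles, which give replicate numbers.

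Of the 45037 probe sets other than the 64 controls, 34945 carry 1 symbol in the platform annotation, 932 carry more than 1 and 9160 are unnamed here. RefSeq's GRCm38.p6 table, matched on Entrez identifiers, gave current symbols, and 34943 of them are in it. Signals were transformed to log2(signal + 7), with 7 taken from the 25th percentile of the table, so folds of dim probe sets are understated. Probe sets with a mean at or above the 40th percentile of means, 20.5, were tested, two-sided, with limma 3.58.1 (R 4.3.3; lmFit, then eBayes with a trend on intensity; Benjamini-Hochberg over all 27022). The Tfrc control probe sets were fitted beside them without an adjusted p. Genes of the wider list are read by their brightest probe set. All members are named, and of the wider list every called gene and the 2 of lowest p per group. The 5 genes most like Tfrc are those of highest Pearson r with its brightest probe set, leaving out Gm numbers, clone names and accessions. Of the other marker lists, 2 of 7 tested endothelial markers were called higher and all 3 tested epididymal markers lower. The shares over all tested genes were 2.98% and 7.37%.

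The members and lists were chosen with earlier results of these data known. The fit was tested on simulated data. Alternatives were quantile normalization, median centring, pseudocounts of 1 and 39, no dim filter, a filter at the 60th percentile, no trend, array weights, a replicate block, the mean of a gene's probe sets and each array left out.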

Additional observations from a re-analysis of the deposited data

How the results depend on the processing

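The count of called member probe sets was 5, and 1 without the dim filter, 3 with the filter at the 60th percentile (17 tested, Fthl17a not among them), 1 without the intensity trend, 10 with array weights, 11 with the replicate block and 1 to 4 when 1 array was left out. Tfrc 1422966_a_at was among those called in every case. It was the only one without the dim filter, without the trend, without KO replicate 2 and without WT replicate 1. The count of called genes in the wider list was 6, and 3 after median centring, 1 without the dim filter, 1 without the trend, 15 with array weights, 14 with the replicate block and 1 to 3 when 1 array was left out. Over all probe sets, 2024 were called, and 1005 without the dim filter, 743 without the trend, 7217 with array weights, 4503 with the block and 159 (without WT replicate 1) to 1534 when 1 array was left out. After median centring 247 of 1629 calls were higher in KO, against 610 of 2024.

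Tfrc 1452661_at had a log2 fold change of -0.013 after median centring, -0.025 without KO replicate 1 and -0.011 without WT replicate 1 (at most 0.087 without 1 array), and the mean of the 3 tested Tfrc probe sets was 0.30. Slc40a1 1417061_at had -0.013 after quantile normalization, -0.020 after median centring, -0.21 with array weights, -0.013 without KO replicate 1, -0.013 without KO replicate 3 and -0.068 without WT replicate 2 (at most 0.14 without 1 array). The log2 difference of the Tfrc 3′ to 5′ ratio was -0.22 to 0.23 when 1 array was left out and -0.029 with the replicate block. Of the genes most like Tfrc 1452661_at, Hnrnpk had -0.030, Atp5o -0.031 and Stmn1 -0.0094 after median centring, and leaving out 1 array gave -0.013 to 0.043 for Hnrnpk, -0.033 to 0.050 for Atp5o, -0.022 to 0.18 for Prkrip1 and -0.0076 to 0.16 for Fhod3. With array weights Fbxl5 had 0.019 and the dimmer Nubp2 probe set 0.13, the second with -0.22 to 0.016 when 1 array was left out. No other log2 fold change of a single tested probe set given here changed sign under these alternatives.

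Same-numbered KO and WT arrays deviated from their group means with correlations of 0.079, 0.46 and 0.27. Each KO array correlated best with the WT array of its number. The exception was WT replicate 1, at 0.11 with KO replicate 3 against 0.079 with KO replicate 1. The labels do not give the numbers as pairs, so the main fit left them out. With them as a block, 4503 probe sets were called, against 2024. Whether they mark a shared batch was not tested. The cause of the changes was not tested.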
